A study of Rattus norvegicus with 50 samples.

Results

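The clock output transcription factors form a group of 6 genes, Dbp, Tef, Hlf, Nfil3, Bhlhe40 and Bhlhe41, followed here through the lungs of 50 rats. They were picked by gene name on the array, and they are 6 of the 25208 genes that passed the filter on dim probes. They are read by 9 probes in 22 spots. The array files name 5 of them directly, and Hlf, listed there under the older name LOC690286, was found through its gene identifier. The group was proposed with the group means of these genes in view, so their levels and differences are given as a description with no test.

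The rats were males of the inbred strain F344, 12 weeks old in the labels of all groups, and each of 10 groups held 5 rats. Exposed rats breathed, nose only, P25 titanium dioxide (TiO2) nanoparticles, 10 mg in each m3 of air, 6 h daily, 5 days a week, during 4 weeks. Control rats breathed filtered air, according to the methods of the study. Lungs were taken when the last exposure had ended (D0) or after a further 3 days (D3), 28 days (D28), 90 days (D90) or 180 days (D180). Rats of the later days had lived longer after exposure, so between days the day cannot be told apart from age. Each day had its own control group, and exposed rats were compared with the control rats of their day. The hour of the day at which the lungs were taken is not given in the sources used here. For clock genes, an effect of the particles therefore cannot be told apart from a difference in hour between groups. The same holds for comparisons between days. RNA came from the accessory lobe, a whole piece of lung tissue, and fewer cells of a type cannot be told apart from less RNA per cell. Each rat had its own array, and p-values measure the spread between these rats.

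In most tissues a molecular clock keeps daily time through a loop in which ARNTL (BMAL1) and CLOCK switch on their own repressors by binding the E-box of gene promoters. The output factors hand that rhythm on to other genes. DBP, TEF and HLF are PAR bZIP proteins, which activate genes that carry a D-box, and NFIL3 is a bZIP repressor that binds the same element and usually peaks at the opposite time of day. BHLHE40 and BHLHE41 (DEC1 and DEC2) are repressors that bind E-boxes and restrain ARNTL and CLOCK. Lung tissue has such a clock, including in the airway epithelium.

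The array was a one-colour Agilent design, and values are log2 of the processed signal after quantile normalization, on which a step of 1 is a 2-fold step. The median processed signal of an array ran from 198 to 473.5 fluorescence units, and 68.7% to 84.5% of the gene spots were well above background. The arrays came from 7 slides, which all held both control and exposed rats. The 3 early days were on 4 slides and the 2 late days on the remaining 3, apart from replicate 1 of the exposed rats at D3, which lay with the late days. Alveolar epithelium markers were well above background for 9 or 10 of 10 genes in every group, and airway epithelium markers for 7 of 7. Neutrophil markers summed to between 88100 and 130000 at D0 and between 87600 and 124000 at D3 in exposed rats, against 30800 to 46600 and 26500 to 49700 in control rats, with 2 of 9 markers called higher on both days (S100a8 and S100a9) and 7 to 9 of 9 detected in every group. Such sums of linear signal weigh the brightest genes most, and the median log2 change of the 9 markers was 0.24 at D0 and 0.3 at D3. At D28 the neutrophil markers summed to between 47700 and 69800 against 28000 to 48300, with S100a9 called and a median change of 0.03. Endothelium markers summed to between 89500 and 125000 in exposed and between 132000 and 144000 in control rats at D0, with 2 of 6 called lower (Cldn5 and Tek), and between 89900 and 108000 against 119000 to 132000 at D3, with 0 of 6 called. Between exposed and control rats, the other calls among 10 marker lists were single ones, apart from 2 genes of the mesothelium and fat list lower at D3. Alveolar macrophage markers summed to between 24500 and 49300 in exposed and between 19900 and 30500 in control rats at D0. At D90 the sums were 21600 to 24600 against 19100 to 20500 without overlap, and on all other days they overlapped. At D0 and D90, 0 of 9 macrophage markers were called. The part of these cell types in the values below was not tested.

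RefSeq promoter windows of the rat assembly GRCr8 were read for 5 of the 6 genes, all but Hlf, and searched for E-boxes and D-boxes over the 250 bases before the annotated start. The E-box (CACGTG, which reads the same on both strands) occurred in the windows of Tef, Bhlhe40 and Bhlhe41, once in each, and in 5.59% of all 33469 windows. The D-box (TTANGTAA, both strands) occurred in 2.04% of all windows and in none of the 5. The related E-box form CACGTT (4.07% of windows) and the RORE (0.206% of windows), the element bound by NR1D1, were found in none of the 5 either. No match says only that these letters are not in these bases. The 3 E-boxes are shown with their neighbouring bases, 5′ to 3′ on the strand of the gene, the E-box in capitals. They started 198, 220 and 48 bases before the annotated start used for the windows of Tef, Bhlhe40 and Bhlhe41. The bases shown for Tef and Bhlhe41 lie within the annotated spans of these genes, so the start used for both lies inside the gene. Those of Bhlhe40 lie before its span.
Tef, chr7:115206618-115206645, + strand: acctggcccagCACGTGtctacatcgtt
Bhlhe40, chr4:143174219-143174246, + strand: gcgttgtccaaCACGTGagactcatgtg
Bhlhe41, chr4:180569387-180569414, - strand: ggtacgttccgCACGTGagctgggtgct

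The full 250 bases before the start of Dbp and Nfil3 are shown as well, because Dbp varied most and Nfil3 ran opposite to it. Their base composition differed, with 61.2% G and C in the window of Dbp and 46.4% in that of Nfil3.
Dbp, chr1:105312006-105312255, + strand: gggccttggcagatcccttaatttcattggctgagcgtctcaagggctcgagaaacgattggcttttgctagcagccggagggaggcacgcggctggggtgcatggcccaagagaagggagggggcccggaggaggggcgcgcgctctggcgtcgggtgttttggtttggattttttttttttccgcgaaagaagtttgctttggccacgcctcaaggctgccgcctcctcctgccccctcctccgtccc
Nfil3, chr17:12432126-12432375, + strand: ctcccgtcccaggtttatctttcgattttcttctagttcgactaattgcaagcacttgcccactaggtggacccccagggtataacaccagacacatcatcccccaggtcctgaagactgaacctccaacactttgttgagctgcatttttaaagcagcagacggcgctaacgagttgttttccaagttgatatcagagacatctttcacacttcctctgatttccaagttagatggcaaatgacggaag

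Dbp, the best known activator among the PAR bZIP factors, varied more between groups than any other gene of the set. Its group means ran from 10.8 to 15.31, a range of 4.51 on the log2 scale or 22.8-fold, and 3 of the 25208 genes had a larger range. The median range over all genes was 0.59. At D0 the control rats had levels of 15.48, 15.24, 15.5, 15.22 and 15.11, and the exposed rats 13.74, 13.24, 13.38, 13.2 and 13.23. At D3 the control rats had 15.44, 15.18, 15.29, 15.16 and 15.47, and the exposed rats 12.9, 12.29, 12.77, 12.65 and 13.48. On both days every exposed rat lay below every control rat. At D28 the control rats had 11.02, 10.91, 10.73, 10.74 and 10.62, and the exposed rats 13.12, 13.3, 14.59, 14.67 and 14.68. At D90 the control rats had 10.74, 10.73, 10.77, 10.95 and 11.22, and the exposed rats 13.97, 13.45, 14.75, 14.3 and 14.74. At D180 the control rats had 10.45, 10.75, 10.88, 10.98 and 10.96, and the exposed rats 13.23, 14.03, 13.75, 14.3 and 13.59. On these 3 later days every exposed rat lay above every control rat.

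The difference in Dbp between exposed and control rats thus had opposite signs early and late. It was -1.95 at D0 (SE 0.24, 95% interval -2.44 to -1.47), a 3.87-fold lower level, and -2.49 at D3 (SE 0.24, -2.97 to -2). It was 3.27 at D28 (SE 0.24, 2.78 to 3.75), a 9.62-fold higher level, 3.36 at D90 (SE 0.24, 2.87 to 3.85) and 2.97 at D180 (SE 0.24, 2.49 to 3.46). The SE is the same on all days because the fit shares its spread between the 10 groups. It is too small where rats spread more, as in exposed rats at D28 (SD 0.79). The means of the control rats lay further apart than those of the exposed rats. Their mean was 15.31 ± 0.17 at D0 and 15.31 ± 0.14 at D3 (SD, n = 5), and 10.8 ± 0.16, 10.88 ± 0.21 and 10.8 ± 0.21 at D28, D90 and D180. The step from D3 to D28 in control rats was -4.5 (SE 0.24), which was 22.7-fold. Exposed rats stayed between these levels, at 13.36 ± 0.22, 12.82 ± 0.44, 14.07 ± 0.79, 14.24 ± 0.55 and 13.78 ± 0.41 from D0 to D180.

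In the order of the Dbp means, the control rats of D0 and D3 came first, the 5 exposed groups followed and the control rats of D90, D28 and D180 came last. The values of neighbouring groups overlapped everywhere except between these 3 blocks, where the gaps were 1.07 and 1.94. The 3 probes of Dbp, which lie near each other on chromosome 1, gave nearly the same differences, from -2.03 to -1.95 at D0 and from 3.18 to 3.3 at D28. The probe used maps to chr1:96178423-96178482 on the + strand of build rn4, per the array files, where no annotation of that build was used here, and all 3 were well above background and not saturated on all 50 arrays. Within single slides that held both groups of a day, the difference lay between -2.27 and -1.55 at D0, between -3 and -1.84 at D3, from 3.03 to 3.93 at D28, from 2.5 to 3.6 at D90, and at D180 from 2.63 to 3.71.

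**Figure D1:**
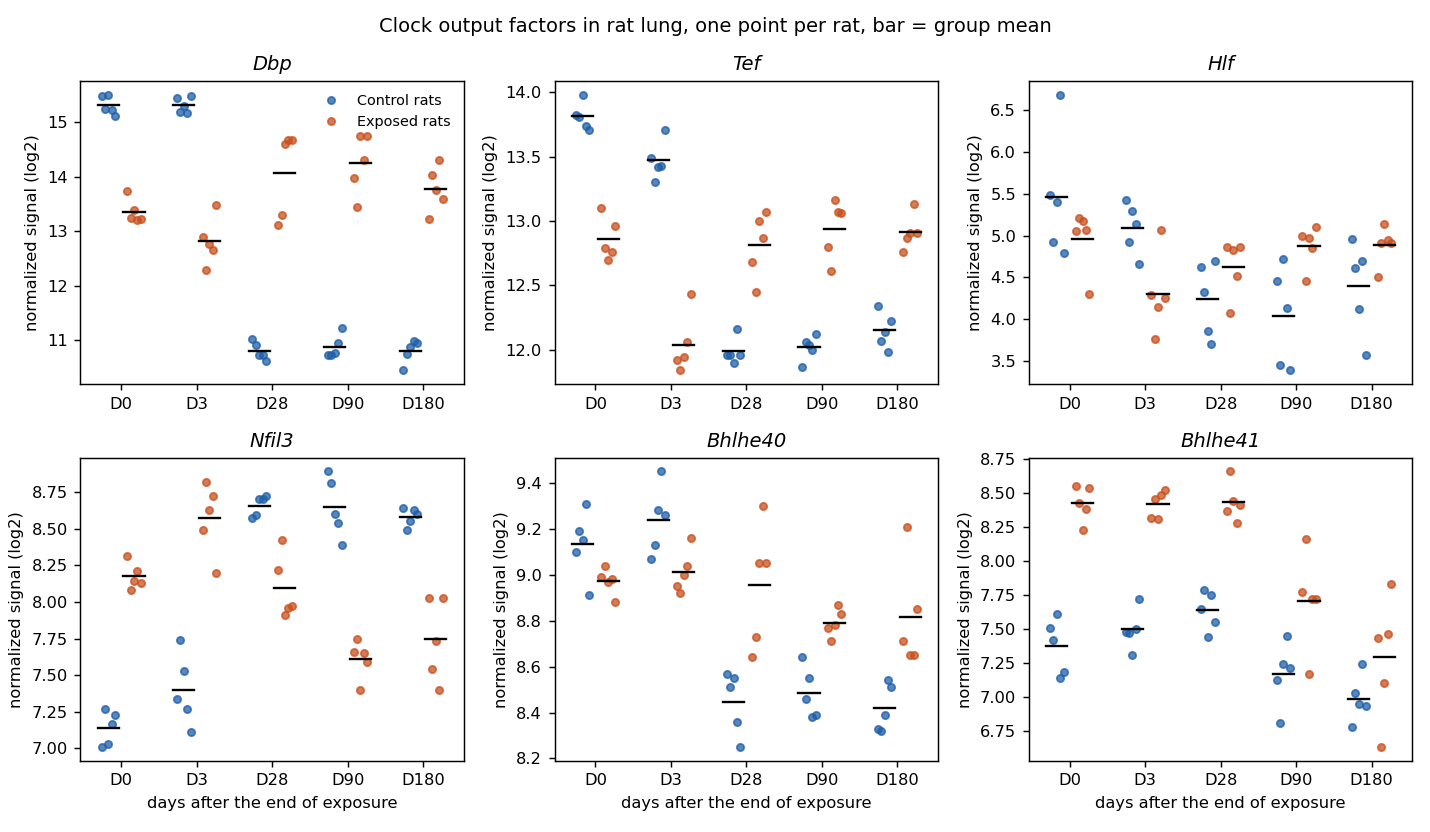
Normalized log2 signal of the 6 clock output factors in each of 50 rats (points; blue for control, orange for exposed) by day after the end of exposure, with the mean of each group of 5 as a black bar. Control levels of Dbp and Tef are high at D0 and D3 and low from D28 on, Nfil3 runs the other way, and Bhlhe41 is higher in exposed rats at D0, D3 and D28. The vertical axes do not start at 0 and differ between panels.

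Tef, a PAR bZIP activator first described in the pituitary, had a similar pattern with a smaller range, 1.82 on the log2 scale or 3.53-fold. At D0 the control rats had 13.82, 13.81, 13.98, 13.74 and 13.71, and the exposed rats 13.1, 12.79, 12.7, 12.76 and 12.96. At D3 the control rats had 13.49, 13.3, 13.42, 13.43 and 13.71, and the exposed rats 11.92, 11.84, 11.94, 12.06 and 12.43. All exposed rats were below all control rats on both days, and the difference was -0.95 at D0 and -1.43 at D3 (SE 0.11 for both). At D28 the control rats had 11.96, 11.96, 11.9, 12.16 and 11.96, and the exposed rats 12.68, 12.45, 13, 12.87 and 13.07. At D90 the control rats had 11.87, 12.06, 12.04, 12 and 12.12, and the exposed rats 12.8, 12.61, 13.16, 13.07 and 13.06. At D180 the control rats had 12.34, 12.07, 12.14, 11.98 and 12.22, and the exposed rats 12.76, 12.87, 12.91, 13.13 and 12.91. Here all exposed rats were above all control rats, by 0.82, 0.92 and 0.76 (SE 0.11 for each). In control rats Tef was lower by 0.34 at D3 than at D0 and by 1.48 at D28 than at D3.

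The Tef means fell into blocks as well. The control rats of D0 and D3 stood highest, at 13.81 ± 0.1 and 13.47 ± 0.15 (SD, n = 5), with a gap of 0.53 to the next group. The exposed rats of D90, D180, D0 and D28 followed between 12.94 and 12.81, and these 4 groups overlapped. After a gap of 0.66 came the control rats of D180, the exposed rats of D3 at 12.04 ± 0.23, and the control rats of D90 and D28 at 12.02 ± 0.1 and 11.99 ± 0.1. Among exposed rats, D3 was the lowest day for both Dbp and Tef. The single Tef probe was read from 10 spots at chr7:120179652-120179711 (rn4, + strand).

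Hlf, the third PAR bZIP activator, was close to the detection limit in these lungs. Its levels ran from 3.39 to 6.68, and the probe used was well above background on 28 of 50 arrays. Group means lay between 4.04 ± 0.59 in control rats at D90 and 5.46 ± 0.74 in control rats at D0 (SD, n = 5). The exposed rats differed from the control rats by -0.5, -0.78, 0.39, 0.84 and 0.49 from D0 to D180 (SE 0.28 for each), and the groups overlapped on all 5 days. A second Hlf probe gave -0.94, -1.44, -1.03, 0.6 and 0.3, so that its sign at D28 was the opposite, and it was well above background on 0 of 5 arrays of the exposed rats at D3 and at D28. The differences were smaller under normexp background correction, at -0.19, -0.24, 0.05, 0.17 and 0.2. Single rats moved them too, the D0 difference to -0.19 without replicate 4 of the control rats and to -0.33 without replicate 5 of the exposed rats, and the D180 difference to 0.28 without replicate 5 of the control rats. No order of the Hlf levels can be read beyond this spread.

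Nfil3, the repressor that shares the D-box with the PAR bZIP factors, ran opposite to Dbp and Tef. At D0 the control rats had 7.01, 7.27, 7.03, 7.17 and 7.23, and the exposed rats 8.31, 8.08, 8.14, 8.21 and 8.13. At D3 the control rats had 7.34, 7.74, 7.53, 7.27 and 7.11, and the exposed rats 8.49, 8.82, 8.63, 8.72 and 8.2. Every exposed rat was above every control rat on these days, by 1.03 at D0 and 1.17 at D3 on average (SE 0.12 for both), or 2.04-fold and 2.25-fold. At D28 the control rats had 8.57, 8.59, 8.7, 8.7 and 8.72, and the exposed rats 8.22, 8.42, 7.91, 7.96 and 7.97. At D90 the control rats had 8.89, 8.81, 8.6, 8.54 and 8.39, and the exposed rats 7.66, 7.75, 7.4, 7.65 and 7.59. At D180 the control rats had 8.64, 8.49, 8.55, 8.63 and 8.6, and the exposed rats 8.03, 7.54, 7.73, 7.4 and 8.03. The exposed rats were now the lower group without overlap, with differences of -0.56, -1.03 and -0.84 (SE 0.12 for each).

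In control rats Nfil3 was higher by 1.26 at D28 than at D3 (SE 0.12, 2.39-fold), the step at which Dbp and Tef were lower. The highest Nfil3 means were those of control rats at D28, D90 and D180, at 8.66 ± 0.07, 8.64 ± 0.2 and 8.58 ± 0.06, and of exposed rats at D3, at 8.57 ± 0.24, and these 4 groups overlapped. Each group in the order overlapped with the next. The lowest were those of control rats at D3 and D0, at 7.4 ± 0.24 and 7.14 ± 0.11 (SD, n = 5). Nfil3 signal was low, between 77.3 and 515.9 fluorescence units, and its differences were smaller under another background correction (0.74 at D0 and 0.91 at D3).

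Bhlhe40, a repressor of ARNTL and CLOCK that many cells also induce on stress, had the smallest range of the 6 genes, 0.82, and 32.1% of all genes had a larger one. At D28 the control rats had 8.57, 8.51, 8.55, 8.36 and 8.25, and the exposed rats 8.64, 8.73, 9.05, 9.3 and 9.05. Exposed rats lay above control rats without overlap at D28, D90 and D180, by 0.51, 0.31 and 0.4 (SE 0.1 for each). At D0 and D3 the groups overlapped, with differences of -0.16 and -0.23 (SE 0.1 for both). In control rats Bhlhe40 was lower by 0.79 at D28 than at D3 (SE 0.1). The highest and lowest means, 9.24 ± 0.15 and 8.42 ± 0.1 (SD, n = 5), were those of control rats at D3 and D180.

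Bhlhe41, the close relative of Bhlhe40, had another pattern from all the others, with exposed means above control means on every day. At D0 the control rats had 7.51, 7.42, 7.61, 7.14 and 7.18, and the exposed rats 8.55, 8.43, 8.23, 8.38 and 8.54. At D3 the control rats had 7.48, 7.47, 7.31, 7.5 and 7.72, and the exposed rats 8.32, 8.46, 8.31, 8.49 and 8.52. At D28 the control rats had 7.65, 7.79, 7.44, 7.75 and 7.55, and the exposed rats 8.37, 8.66, 8.44, 8.28 and 8.41. On these 3 days the groups did not overlap, and the differences were 1.06, 0.92 and 0.8 (SE 0.15 for each), or 2.08-fold, 1.89-fold and 1.74-fold. At D90 the control rats had 7.12, 6.81, 7.24, 7.45 and 7.21, and the exposed rats 7.77, 8.16, 7.17, 7.72 and 7.72. At D180 the control rats had 6.78, 7.03, 6.95, 7.24 and 6.93, and the exposed rats 7.43, 6.63, 7.1, 7.46 and 7.83. The groups overlapped on both of these days, with differences of 0.54 at D90 (95% interval 0.25 to 0.84) and 0.3 at D180 (0.01 to 0.6). These intervals use a spread shared by all 10 groups. At D180 the SD was 0.45 in exposed and 0.17 in control rats, so the interval is too narrow there and does not set the difference apart from 0. Leaving out single exposed rats of D180 moved the difference of that day to 0.17 (replicate 5) or 0.47 (replicate 2). Its control means moved little from D3 to D28 (0.14, SE 0.15), where Dbp moved most.

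The highest Bhlhe41 means, 8.43 ± 0.13, 8.43 ± 0.14 and 8.42 ± 0.1 (SD, n = 5), belonged to the exposed rats of D0, D28 and D3, which overlapped with each other and with no other group. The mean of the exposed rats was lower by 0.73 at D90 than at D28, and that of the control rats by 0.47, but the slides of D28 and D90 were not the same and the day cannot be told apart from the slide there. The probe lies at 1953325 to 1953384 of the unplaced part of chromosome 4 in rn4.

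Counted over the 6 genes, the exposed and control values did not overlap for 2 genes with higher and 2 with lower levels in exposed rats at D0 and again at D3. At D28 it was 4 higher and 1 lower, and on each of the days D90 and D180 3 higher and 1 lower. Among all genes such a gap was found upwards for 4.75% and downwards for 3.77% at D0, for 3.35% and 3.42% at D3, for 2.23% and 1.57% at D28, for 2.2% and 1.63% at D90, and for 2.77% and 1.45% at D180. In control rats 4 of the 6 genes were separated from D3 to D28, 1 higher and 3 lower, beside 1.12% and 1.17% of all genes. From D0 to D3 Tef alone was separated, lower, although its highest D3 and lowest D0 values both round to 13.71, beside 2.89% of all genes higher and 2.85% lower. From D28 to D90 and from D90 to D180 it was 0 of 6, beside 4.93% and 4.4%, and then 0.992% and 0.912%, of all genes. In exposed rats Tef was separated from D0 to D3 (lower, all genes 1.34% higher and 1.73% lower) and from D3 to D28 (higher, all genes 2.35% and 2.04%). Nfil3 and Bhlhe41 were separated from D28 to D90 (lower, all genes 4.79% and 4.61%), and 0 of 6 from D90 to D180 (all genes 0.904% and 0.321%). Comparisons of successive days share groups with each other and with those of exposed against control rats. Nothing is read from these shares, since the genes were picked on these values.

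**Figure D2:**
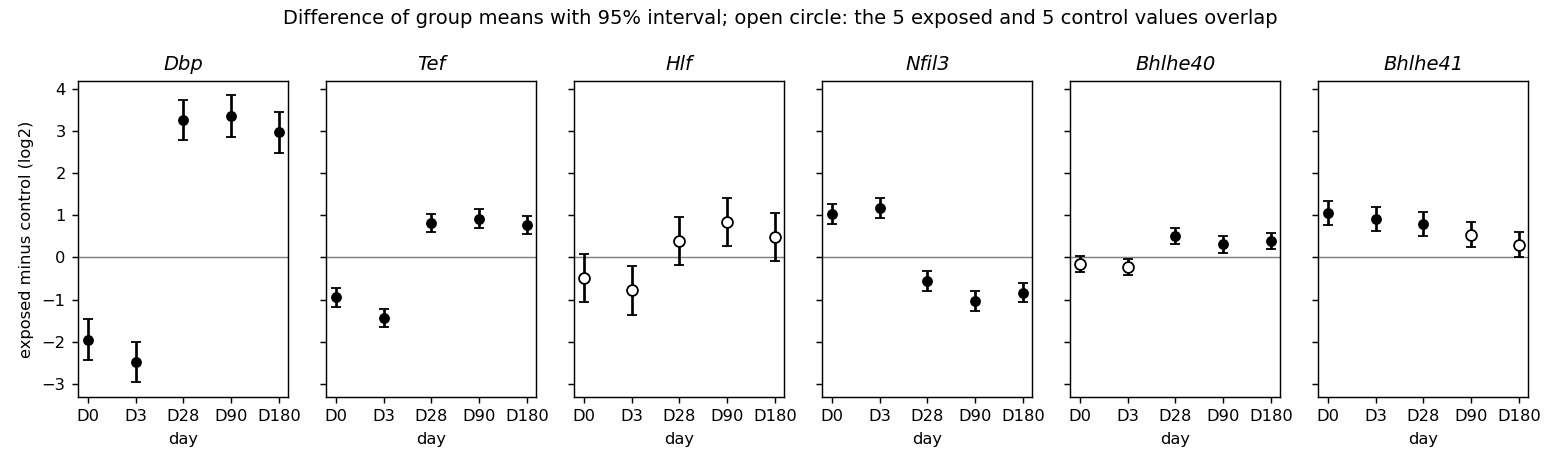
Difference of group means, exposed minus control (log2), for each factor on the 5 days, with 95% intervals from the limma fit of 50 arrays. The fit shares the spread of a gene between all 10 groups. Open circles mark days on which the values of the 5 exposed and 5 control rats overlap. Dbp runs from -2.49 at D3 to 3.36 at D90, Nfil3 from 1.17 to -1.03, and Bhlhe41 stays above 0.

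A separate question is whether the factors also vary together from rat to rat inside a group, which does not use the group means. Each rat's deviation from its group mean was taken, and the 15 pairs of genes were correlated over the 50 rats, with two-sided permutation tests of 100000 resamples within groups and p-values adjusted over the 15 pairs. Rats with more Dbp than their group had more Tef (Pearson r = 0.73, p = 3e-05, adjusted p = 0.00015, Spearman rho = 0.62, p = 9e-05) and less Nfil3 (r = -0.71, p = 1e-05, the smallest that the resamples can give, adjusted p = 0.00015, rho = -0.74). Tef and Nfil3 were opposed as well (r = -0.62, permutation p = 3e-05, adjusted p = 0.00015, rho = -0.53). Dbp and Bhlhe40 varied together more weakly (r = 0.49, permutation p = 0.00816, adjusted p = 0.0306, rho = 0.41). The exposed rats of D28 weigh heavily in this pair, with deviations from -0.951 to 0.607 for Dbp and from -0.316 to 0.347 for Bhlhe40. The coefficient without that group was not computed. The other 11 pairs did not pass, among them all those with Hlf or Bhlhe41, whose r with Dbp was -0.18 (permutation p = 0.3).

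Without the 2 rats farthest from the median in the first gene of each pair, the 4 coefficients were 0.71, -0.74, -0.51 and 0.41. With slide removed as well as group they were 0.76, -0.75, -0.67 and 0.52, all 4 still under an adjusted p of 0.05. Within control rats alone (25 rats), Dbp and Nfil3 had r = -0.61 (permutation p = 0.00103, adjusted p = 0.00772 over all pairs in both kinds of rats, rho = -0.63). Dbp and Tef did not pass in control rats (r = 0.2, permutation p = 0.391, adjusted p = 0.506, rho = 0.26). Within exposed rats (25 rats), the coefficients of Dbp with Nfil3 and with Tef were -0.77 and 0.85 (permutation p = 3e-05 and 2e-05, adjusted p = 0.00045 for both, rho = -0.8 and 0.82). Dbp and Bhlhe40 had r = 0.13 in control rats (permutation p = 0.552, adjusted p = 0.637, rho = 0.13) and 0.62 in exposed rats (permutation p = 0.00973, adjusted p = 0.0486, rho = 0.64). Dbp and Bhlhe41 had r = 0.6 in control rats (permutation p = 0.00658, adjusted p = 0.0395, rho = 0.62) and -0.37 in exposed rats. Whether the coefficients of control and exposed rats differ was not tested.

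**Figure D3:**
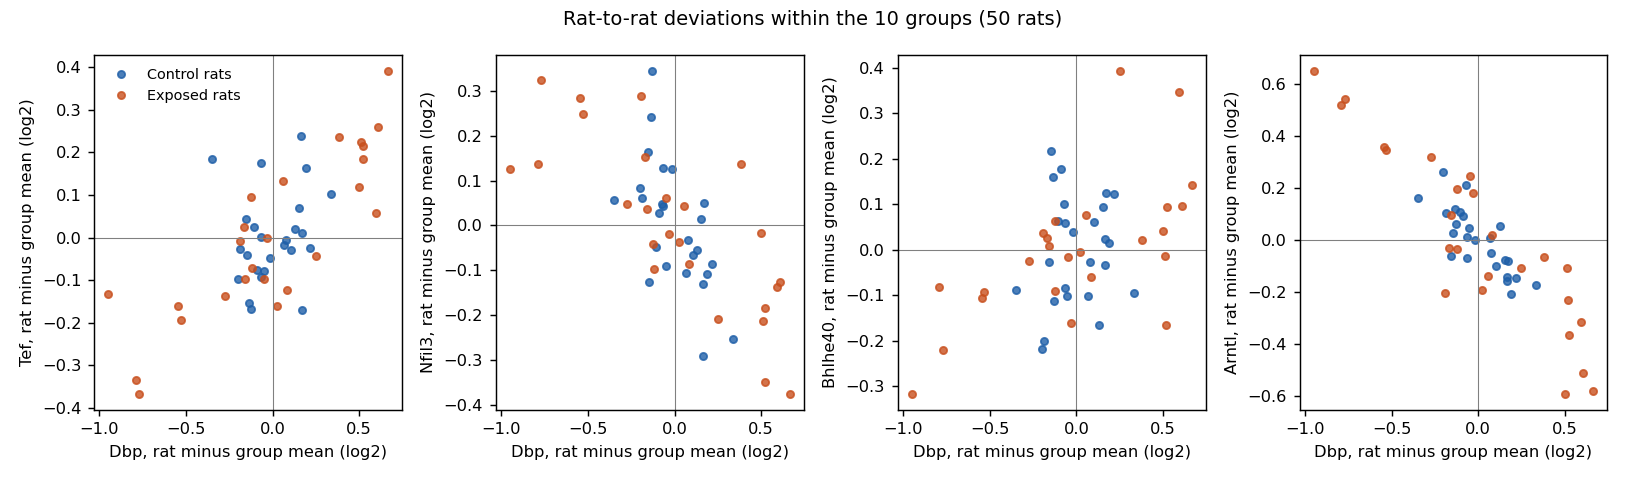
Deviation of each of 50 rats from its group mean (log2) for Dbp, on the horizontal axes, against that for Tef, Nfil3, Bhlhe40 and Arntl, with control rats in blue and exposed rats in orange. The points rise to the right for Tef (r = 0.73) and Bhlhe40 (r = 0.49) and fall for Nfil3 (r = -0.71) and Arntl (r = -0.89), and exposed rats spread more widely along Dbp.

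The same deviations were set against 7 core clock genes, a family added after the data had been seen. Arntl, the activator at the centre of the loop, had the closest relation to Dbp (r = -0.89, permutation p = 1e-05, adjusted p = 7e-05 over the 7 genes, rho = -0.82, and r = -0.86 without the 2 farthest rats). Per2 and Per3, period repressors, followed Dbp (r = 0.64 and 0.5, permutation p = 3e-05 and 0.00258, adjusted p = 0.000105 and 0.00602, rho = 0.57 and 0.43). Nr1d1 and Nr1d2, nuclear receptors that repress Arntl, did so less by Pearson coefficient (r = 0.28 and 0.36, permutation p = 0.0103 and 0.0172, adjusted p = 0.0181 and 0.024). By rank, Nr1d1 was close to Per3 (rho = 0.4, permutation p = 0.00341, adjusted p = 0.00796), and for Nr1d2 the rank coefficient of 0.32 had an adjusted p of 0.0627. Per1 and Cry1 did not pass (r = 0.11 and -0.1).

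The spread between rats of a group was wider for Dbp in exposed rats, with a pooled SD of 0.52 against 0.18 in control rats. The SD of single groups ran from 0.22 to 0.79 in exposed and from 0.14 to 0.21 in control rats, so that the ranges did not overlap, and 0.532% of all genes had a larger ratio of exposed to control SD. For Tef the pooled SD was 0.21 against 0.12 (4.3% of genes had a larger ratio), for Bhlhe41 0.27 against 0.18 (9.06%), for Nfil3 0.21 against 0.16 (17%), and for Bhlhe40 0.17 against 0.13 (19%). Hlf was the exception, with 0.34 in exposed and 0.55 in control rats.

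Over the 10 group means, the genes most like Dbp were sought among 1527 genes with a range of at least 1 and detected in all groups. The 5 highest Pearson coefficients were those of a transcript with no gene name, TC615028 (0.983), Rasl10a (0.974) and Rasd2 (0.954), which encode small GTPases, and of the clock genes Nr1d2 (0.951) and Per3 (0.928). Tef was next, at place 6 (0.917). The 5 lowest were those of Hs3st6 (-0.953), Arntl (-0.946), Hs3st3a1 (-0.932), Adm (-0.929) and Nfil3 (-0.916), where Hs3st6 and Hs3st3a1 encode heparan sulfate sulfotransferases and Adm the peptide adrenomedullin. Bhlhe41 was at place 283 (0.256). Bhlhe40 (0.909) had too small a range to be ranked, and Hlf (0.883) was not detected in all groups. These coefficients have 10 points that share arrays and normalization, and carry no test.

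**Figure D4:**
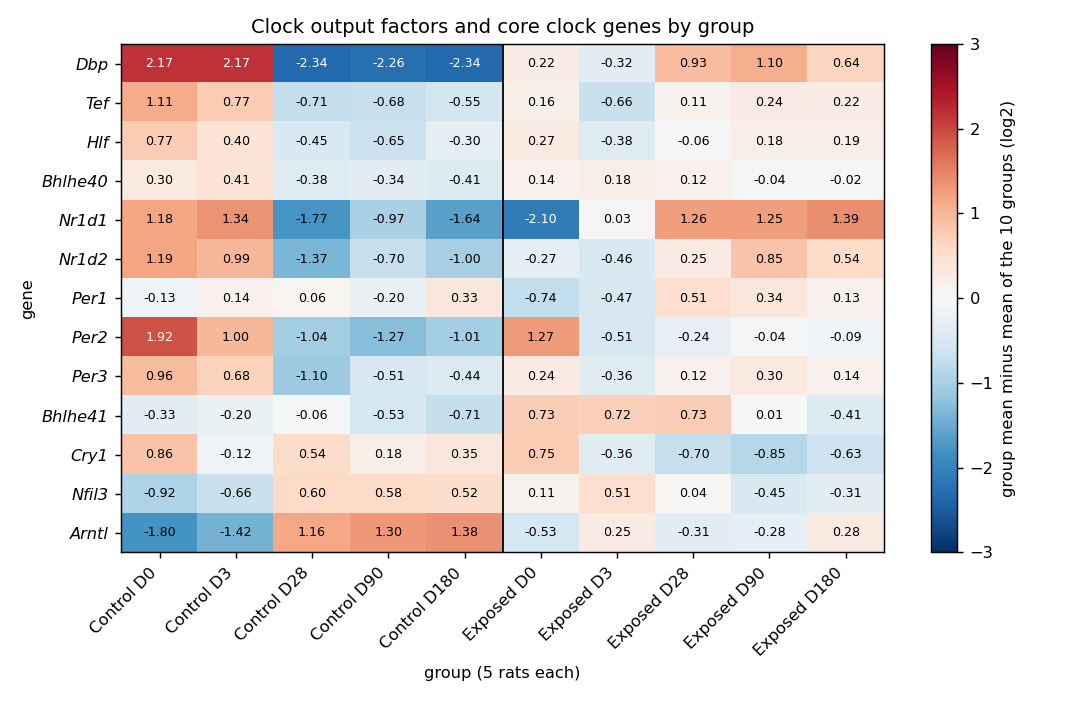
Group mean minus the mean of the 10 groups (log2; red above, blue below) for the 6 output factors and 7 core clock genes in control and exposed rats on the 5 days. In control rats Dbp goes from 2.17 at D0 and D3 to -2.34 at D28, Arntl goes from -1.8 to 1.16 between D0 and D28, and Bhlhe41 is highest in exposed rats at D0, D3 and D28.

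The genes around these factors were tested in 6 lists of 76 genes in all, of which 72 were measured and which were drawn up with earlier results of these data known. A gene was called at an adjusted p under 0.05 and a change of at least 1.5-fold in limma, over all genes tested. At D0, 15 of the 72 (20.8%) were called, 6 higher and 9 lower in exposed rats, against 4.28% of all genes. At D3 it was 17 (6 higher, 11 lower, 23.6% against 3.48%), at D28 12 (6 and 6, 16.7% against 1.33%), at D90 8 (5 and 3, 11.1% against 0.381%) and at D180 7 (4 and 3, 9.72% against 0.325%). Between control rats, 5 were called from D0 to D3 (1 higher, 4 lower, all genes 2.33%), 14 from D3 to D28 (7 and 7, all genes 0.639%) and 6 from D28 to D90 (5 and 1, all genes 5.25%), the last falling to 0 with slide as a block. In that fit only replicate 1 of the exposed rats at D3 links the slides of D28 to those of D90. It therefore cannot part day from slide. From D90 to D180 limma called 0, with 9 at an unadjusted p under 0.05, and 0.0198% of all genes. Cell type markers were called between control rats as well. From D0 to D3, 3 of 11 lymphocyte markers were called higher (Cd8a, Ms4a1 and Gzmb, list median 0.46) and 2 of 6 endothelium markers lower (Cldn5 and Tek), with Mmp8, Cd163, Pdgfra and Alas2 lower and Col1a1 higher in other lists. From D3 to D28, 2 of 7 fibroblast and muscle markers (Col1a1 and Pdgfra) and Alas2, of red blood cells, were called higher, and from D28 to D90 Cd68, Hopx and Col1a2 lower. Their part in these calls was not tested. Leaving out replicate 5 of the exposed rats at D28 took the calls of that day from 12 to 7.

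Of the 16 core clock genes, 15 were measured, and they held 6, 7, 9, 7 and 6 of these calls from D0 to D180. At D0 and D3 Arntl was higher in exposed rats, by 1.26 (SE 0.18, adjusted p = 6.63e-07) and 1.67 (adjusted p = 1.71e-09), and Nr1d1 lower, by 3.27 (SE 0.33, adjusted p = 1.87e-10) and 1.31 (adjusted p = 0.00473). From D28 on both had the other sign, with Arntl changes of -1.47, -1.58 and -1.09 and Nr1d1 changes of 3.04, 2.22 and 3.03. Nr1d2 changed by -1.46, -1.45, 1.62, 1.55 and 1.55 from D0 to D180, and Per2 by -0.65, -1.51, 0.81, 1.23 and 0.93, with a call on each day. Per3 was called lower at D0 and D3 and higher at D28 and D90 (1.23 and 0.82), and Cry1 was called lower at D28, D90 and D180 (-1.24, -1.03 and -0.98). Per1 was called on no day. Npas2, a partner of ARNTL like CLOCK, was higher by 1.57 at D3 and had changes of -1.18, -1.1 and -0.8 on the later days. Ciart, a repressor of CLOCK and ARNTL, was lower by 2.31 at D0 and at least 3.04-fold lower at D3, where it was well above background on 0 of 5 exposed arrays. At D28 Ciart was called higher, with a lower bound of only 1.06-fold, as it was well above background on 0 of 5 control arrays. The median change of the list was -0.3, -0.34, -0.08, 0.05 and -0.01 over the 5 days, with that of all genes between -0.01 and 0.004.

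In control rats from D3 to D28, 8 core clock genes were called. Arntl and Npas2 rose by 2.58 and 2.53 (adjusted p = 7.09e-14 and 1.43e-12), and Nr1d1, Nr1d2, Per2 and Per3 had changes of -3.11, -2.37, -2.04 and -1.78, while Ciart was at least 3.41-fold lower. Cry1 changed by -0.99 from D0 to D3 in control rats and by 0.66 from D3 to D28.

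Of the 18 genes known as targets of the PAR bZIP factors or of NFIL3 in liver and elsewhere, 16 were measured, and 2, 2, 1, 1 and 1 were called from D0 to D180. At D0 Por, the electron donor of the P450 enzymes, fell by 0.62 (SE 0.12, adjusted p = 0.000116), and Nr1i3, the nuclear receptor CAR, was at least 2.03-fold lower, being well above background on 0 of 5 exposed arrays. At D3 Cyp2b2, a P450 enzyme, fell by 0.71 and Aldh1a1, a retinal dehydrogenase, by 0.72. Acot1, an acyl-CoA thioesterase, rose by 1.08 at D28, 1.57 at D90 and 1.92 at D180 (SE 0.25 for each, adjusted p = 0.00612, 8.34e-05 and 2.11e-06). It also rose by 1.08 in control rats from D3 to D28 (adjusted p = 0.00988), where Dbp was lower, so that its calls did not share the sign of the Dbp difference throughout. In control rats from D0 to D3, where the Dbp difference was 0, 2 genes of the list were called lower. Nr1i3 was among them, at least 1.69-fold lower. The median of the list was -0.23, -0.38, 0.07, -0.03 and 0.1 over the 5 days.

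Of 10 other rhythmic output genes, 1 was called at D0, with Lonrf3, which encodes a ring finger protein, higher by 0.78 (adjusted p = 0.000389). At D3 Wee1, the kinase that holds back mitosis, fell by 0.9 (SE 0.1, adjusted p = 3.88e-09), Tspan4 by 0.79 and Pim3 by 0.75. Of these 10, 0 were called at D28, D90 and D180. In control rats from D3 to D28, Wee1 and Tspan4 had changes of -0.81 and -1.08, and Dtx4 rose by 0.64. Of the 10 bZIP relatives, Batf, a factor of lymphoid and myeloid cells, was the only call, higher by 1.08 at D0 and 1.03 at D3 (SE 0.2 for both). Of the bHLH-Orange relatives of Bhlhe40 and Bhlhe41, 0 of 8 measured were called in exposed against control rats on any day, and Hes2 and Hes7 were called higher in control rats from D28 to D90, where day and slide cannot be told apart.

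Of 13 genes that glucocorticoids induce, 3 were called higher and 2 lower at D0, 3 and 1 at D3, 0 and 2 at D28, and 0 at D90 and at D180. The higher ones on both early days were Lcn2 (by 3.22 and 2.45), Mt2A (1.35 and 0.62) and Angptl4 (0.86 and 1.04), of which Lcn2 is also an acute phase protein. The lower ones were Dusp1 (-1.07) and Pdk4 (-1.15) at D0, Klf9 (-0.63) at D3, and Fkbp5 (-1.05) and Zbtb16 (-2.74) at D28. The median of this list was -0.28, -0.29, 0.04, -0.07 and -0.25 from D0 to D180.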

How the data were processed

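Lung RNA of 50 rats, 5 per group, was hybridised to one-colour arrays, and groups came from the sample labels. The deposited scanner files hold spot intensity on a linear scale, read by Agilent Feature Extraction 11.0.1.1 per the file headers (the methods of the study give a later release). The processed signal used here is background-subtracted and detrended, and arrays are not yet scaled to each other. A series matrix deposited beside them holds linear intensity values that match the quantile normalized median signal, and served as an alternative. The methods of the study filter probes against negative controls, quantile normalize, correct for batch terms that are not named and fit limma with limits of 1.5-fold and 0.05.

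Control spots and flagged spots (non-uniform features and population outliers) were dropped, the log2 signals of a probe's spots were averaged, and 30367 probes were quantile normalized. Altered gene names of 84 spots in 22 files were taken from the other files. A probe was kept when its signal exceeded the 95th percentile of 308 negative controls on at least 5 arrays (29549 probes), and the probe of highest mean signal stood for its gene. Limma 3.58.1 (R 4.3.3) fitted a mean for each of 10 groups, with two-sided p-values adjusted by Benjamini-Hochberg over 25208 genes, and fits were tested on simulated data. SE and 95% intervals come from this fit, which shares the spread of a gene between all 10 groups. They are too narrow where the compared groups spread more than the others. A gene was well above background in a group by the mark of the extraction software. Where it was so on no array of a group, the fold is a lower bound against the lowest signal well above background. The number of arrays limits the precision.

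The members and the gene lists were chosen with earlier results of these data known. The genes named were the 6 factors, up to 3 called genes of largest change per list and comparison, 7 core clock genes, and the 5 genes most and 5 least like Dbp, and a few further called genes were named after their values were seen where a count was small. Alternatives were other scalings and background corrections, the series matrix, flagged spots kept, other filters and probe rules, slide and replicate blocks, the compared groups alone and each rat left out.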

Additional observations from a re-analysis of the deposited data

Results flagged for a closer look

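The exposed-minus-control difference had opposite signs at different days for 3 of the 6 factors, with every exposed rat below every control rat on some days and above on others. For Dbp it was -1.95 at D0 and -2.49 at D3 but 3.27 at D28, 3.36 at D90 and 2.97 at D180 on the log2 scale. For Tef it was -0.95 and -1.43 but then 0.82, 0.92 and 0.76. For Nfil3 it was 1.03 and 1.17 but then -0.56, -1.03 and -0.84. From D3 to D28 the control means moved more, by -4.5 (Dbp), -1.48 (Tef) and 1.26 (Nfil3). The exposed means moved by 1.25, 0.77 and -0.48. The hour at which lungs were taken is not given, so an effect of the particles cannot be told apart from a difference in hour. The difference between days was not tested, since the genes were chosen with these values known.

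Single rats stood apart from the other 4 of their group in 2 of 60 sets of 5 values, where chance gives about 1 in 20. Replicate 4 of the control rats at D28 had a Tef level of 12.16, with the others between 11.9 and 11.96. Replicate 5 of the exposed rats at D0 had an Hlf level of 4.3, with the others between 5.05 and 5.21, in a gene near the background.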

How the results depend on the processing

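The differences of Dbp between exposed and control rats kept their sign and moved by less than the spread between rats in all alternatives run. Over 9 alternatives of processing they lay between -1.98 and -1.91 (D0), -2.5 and -2.46 (D3), 3.2 and 3.44 (D28), 3.22 and 3.36 (D90) and 2.88 and 3.01 (D180), and on leaving out 1 rat between -2.05 and -1.9, -2.65 and -2.36, 3.11 and 3.5, 3.23 and 3.56, and 2.84 and 3.11. Normexp background correction brought those of Nfil3 to 0.74 at D0, 0.91 at D3 and -0.8 at D90, and of Bhlhe41 to 0.81 at D0. Those of Hlf went from -0.78 to -0.24 (D3) and from 0.84 to 0.17 (D90) under normexp, and to -0.28 and 0.2 with the series matrix, and the mean over both probes turned its D28 difference from 0.39 to -0.32. The number of factors without overlap stayed within 1 of its value. The 4 correlated pairs of factors also passed under 75th percentile scaling, normexp, and removal of slide.

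Calls over the 6 lists changed as follows, and the cause was not tested. At D0 there were 25 without the fold limit. At D28 there were 5 with the compared groups alone, and 7 to 13 when leaving out 1 rat. Control rats from D0 to D3 had 3 under normexp and with the series matrix, 10 without the fold limit, 2 with the compared groups alone and 2 to 5 when leaving out 1 rat (2 or 3 without replicate 1 or 3 of D0 or replicate 1 or 2 of D3). Control rats from D3 to D28 had 9 with the compared groups alone. Control rats from D28 to D90 had 1 under normexp and with the series matrix, 0 with slide as a block (limma, 2 at an unadjusted p under 0.05), 2 with the compared groups alone and 1 to 11 when leaving out 1 rat, namely 1, 3, 2 and 11 without replicates 1, 2, 4 and 5 of D28 and 3 without replicate 2 of D90.

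The labels do not say that replicate numbers pair rats, and same-numbered rats of a day had deviations correlating between -0.34 and 0.45 over genes, above 0.1 in 8 of 25 pairs. With the replicate block, 13, 17, 12, 8 and 6 list genes were called from D0 to D180, and the Dbp differences were -1.95, -2.49, 3.27, 3.36 and 2.97. Hlf was too dim for any statement on its order.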

Other observations

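The 5 exposed rats of D28 did not form an even spread in Dbp. Replicates 1 and 2 had 13.12 and 13.3, and replicates 3, 4 and 5 had 14.59, 14.67 and 14.68. The same rats 1 and 2 had the higher Nfil3 levels (8.22 and 8.42, against 7.91, 7.96 and 7.97) and the lower Tef levels (12.68 and 12.45, against 13, 12.87 and 13.07) and Bhlhe40 levels (8.64 and 8.73, against 9.05, 9.3 and 9.05). Their Arntl deviated from the group mean by 0.651 and 0.541, and that of replicates 3, 4 and 5 by -0.365, -0.316 and -0.511. Bhlhe41 showed no such order (8.37 and 8.66, against 8.44, 8.28 and 8.41). Replicates 1 and 3 shared slide 3, and replicates 2 and 5 shared slide 4.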
